A study of Mus musculus with 24 samples.

Results

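The 30 genes described here encode subunits of SAGA and ATAC, the large coactivator complexes that carry the lysine acetyltransferase Kat2a. They were taken from a list of gene names. All 30 were found among the 38355 genes of the count tables, and all 30 passed the filter on low counts. The list was set out so that the deubiquitinase module of SAGA, made of Usp22, Atxn7, Atxn7l3 and Eny2, could be compared with the other 26 members.

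SAGA and ATAC are built from modules around a shared acetyltransferase unit, in which Kat2a or its paralogue Kat2b works with the adaptors Tada2a or Tada2b, Tada3 and Ccdc101. SAGA adds a structural core of histone-fold and TAF proteins, the activator-binding protein Trrap, a splicing module and a deubiquitinase module that removes ubiquitin from histone H2B. ATAC instead carries a separate acetyltransferase, Csrp2bp, and histone-reading proteins such as Yeats2 and Zzz3. In the hippocampus, histone acetylation and the transcription that follows new experience are closely studied in connection with memory.

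The RNA came from the dissected CA1 subfield of C57BL/6J mice aged 3 to 5 months, and polyadenylated RNA was sequenced in 24 libraries. The groups were Kat2a cKO mice after 15 min of novelty (7 libraries), Kat2a cKO mice left naive (6), control mice after 15 min of novelty (5) and control mice left naive (6). All mice carried floxed Kat2a alleles, written Kat2a fl/fl. The cKO mice also carried a CamKII alpha Cre transgene, whose promoter is active mainly in excitatory forebrain neurons, and the labels name no Cre in the controls. No group had Cre without floxed Kat2a, so the presence of Cre and the loss of Kat2a cannot be told apart. Cells outside the reach of this Cre keep Kat2a and contribute to the tissue RNA.

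Reads assigned to genes numbered 13020484 to 21183762 per library in the cKO novelty group, 19619226 to 24543117 in the cKO naive group, 13876546 to 35754503 among control novelty libraries and 10700954 to 23374924 among control naive ones. Levels are given as CPM, read counts brought to a common library size with TMM scaling over all libraries, and log2 fold changes come from edgeR fits across all genes. Kat2a transcript checked the genotype labels. Exposed cKO libraries had 31.2 to 38.3 CPM of it and naive cKO libraries 32.5 to 39.3 CPM, against 56.0 to 64.2 CPM in exposed controls and 59.3 to 70.3 CPM in naive controls. Every cKO library lay below every control library, and Kat2a was at 58.4% of control after novelty (two-sided exact permutation p = 0.00126, n = 7 and 5) and at 56.9% of control in naive mice (two-sided exact permutation p = 0.00216, n = 6 each). Both p-values are the smallest these numbers of libraries allow. The immediate early gene Fos checked the exposure labels, with a mean of 35.8 CPM in cKO novelty libraries against 3.49 in cKO naive, and 31.4 CPM in control novelty libraries against 3.17 in control naive. CA1 pyramidal markers were present in every library, with a summed level of 4784 to 5605 CPM in exposed and 4520 to 5943 CPM in naive cKO libraries, and of 5487 to 7013 CPM in exposed and 5452 to 6150 CPM in naive control libraries. The labels do not say whether each library came from a separate mouse, so p-values measure the spread between these libraries. In tissue RNA, fewer cells of a type and less RNA per cell cannot be told apart.

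Levels per kb of exon ordered the members in a way that was nearly the same in the 4 groups. The length counts the annotated exons of a gene merged together, within the gene span given in the authors' deposited tables. It can exceed the length of any 1 transcript. It was 4584 bases for Taf10 and 5123 for Eny2, so their levels per kb may be too low. The order depends on this choice, and lengths of single transcripts were not used. The regulator Atxn7l3 and the ubiquitin protease Usp22 stood at the top, with means over the groups of 57.0 and 52.4 CPM per kb. The histone-fold protein gene Taf9 (28.8 CPM per kb) and the small splicing factor gene Sf3b5 (26.3 CPM per kb) followed, although 73.8% of the exon bases of Taf9 are shared with Ak6 on the same strand, which makes its level uncertain. Eny2, the small protein shared with the mRNA export complex TREX-2, stood in place 6 with 14.8 CPM per kb. Atxn7, which anchors the deubiquitinase module to the rest of SAGA, stood far lower, in place 21 with 5.05 CPM per kb. The core proteins Supt3 (2.31 CPM per kb) and Taf6l (2.04 CPM per kb) were lowest. By this measure the members of the deubiquitinase module were spread over most of the range. For comparison, the median over all genes tested was 5.04 CPM per kb, and 21 of the 30 members lay above it. Several neighbours in the order could not be separated. Dr1 lay within 1 SD of Eny2, and Eny2 of Taf9b, over the 24 libraries, as did each gene and the next in the run from Tada2a through Trrap, Tada1, Mbip, Wdr5 and Tada3 to Sf3b3. Atxn7l3 and Usp22 were further apart than that, with Atxn7l3 higher in 22 of 24 libraries.

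**Figure D1:**
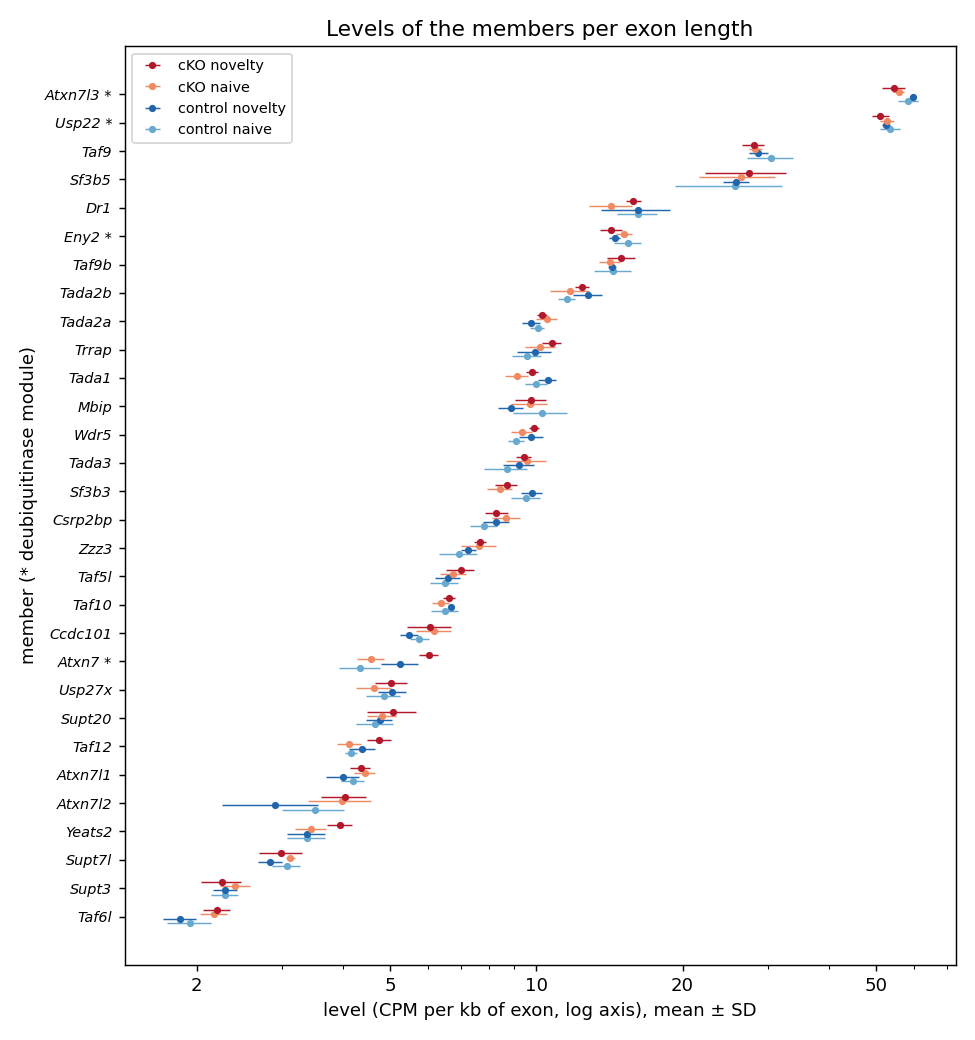
Level of each member per merged exon length, in CPM per kb on a log axis. Points are the mean of each group with its SD, for cKO novelty, cKO naive, control novelty and control naive libraries. Atxn7l3 and Usp22 lead in all 4 groups, Taf6l is last in all 4, and the groups lie close together for nearly every member.

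The members varied little between libraries of 1 group. Their median coefficient of variation within groups was 6.13%, with a range of 3.44% for Taf10 to 17.0% for Sf3b5. The median was 9.55% over the 16744 genes tested and 7.05% over the 9862 genes in the same range of mean CPM. Usp22 was among the steadiest members at 3.52%, and Atxn7l2, a paralogue of Atxn7, was among the most variable at 15.6%.

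Atxn7 was the member that differed most clearly with novelty. Its protein, ataxin-7, holds the deubiquitinase module to SAGA and is known for a polyglutamine expansion that causes an inherited ataxia with loss of vision. Atxn7 (ENSMUSG00000021738, chr14:14012491-14107296, plus strand, GRCm38) had 43.4, 48.1 and 49.0 CPM as the lowest, median and highest cKO novelty library, against 31.8, 36.0 and 38.3 CPM in cKO naive libraries. The 7 exposed libraries all lay above the 6 naive ones. It had 42.0, 39.5, 36.2, 46.0 and 41.1 CPM in the 5 control novelty libraries, against a lowest, median and highest of 29.9, 34.7 and 38.0 CPM in control naive libraries. Here 4 of the 5 exposed libraries lay above all naive ones, and the library with 36.2 CPM lay inside their range. Between 397 and 1383 reads per library stood behind these levels.

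In cKO mice, Atxn7 rose by 31.5% with novelty (log2 fold change 0.39, SE 0.05, edgeR adjusted p = 0.0002). It was the 1 member of 30 that passed, where 2.41% of all genes tested passed, and the 1 member whose exposed and naive libraries did not overlap there, where 1.94% of all genes did not. DESeq2 called Taf12 and Yeats2 as well (4.00% of all genes). In control mice the log2 fold change of Atxn7 was 0.27 (SE 0.07, edgeR adjusted p = 0.11), and 0 of 30 members passed in the main edgeR fit, where 1.22% of all genes did. In the control comparison 4 members had an unadjusted p below 0.05, as did 1778 of all 16100 genes tested. There DESeq2 called Atxn7 alone (2.34% of all genes) and limma-voom called 0 (1.37% of all genes). In the authors' deposited table the log2 fold change of Atxn7 with novelty in control mice was 0.27 (SE 0.08, adjusted p = 0.0195). Averaged over both genotypes, Atxn7 rose by 26.1% (log2 fold change 0.33, SE 0.04, edgeR adjusted p = 5.19e-06), and 11 of the 12 exposed libraries lay above all naive ones. The averaged comparisons use the same libraries as the pairwise ones and are not independent of them. Within libraries numbered 1 to 3 the averaged log2 fold change was 0.24 (edgeR adjusted p = 0.036), and within those numbered 4 and above it was 0.44 (edgeR adjusted p = 0.00093). In control mice alone these values were 0.13 (edgeR adjusted p = 0.72) and 0.46 (edgeR adjusted p = 0.016), and the labels do not say what the numbers stand for. The control novelty libraries numbered 4 and above are libraries 4 and 5 alone, so the second value rests on few libraries. The response of Atxn7 did not pass a test for a difference between the genotypes (log2 interaction 0.12, SE 0.09, edgeR adjusted p = 1.0).

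The other 3 genes of the deubiquitinase module did not pass with novelty in any comparison by edgeR with its TMM scaling. Usp22, the protease itself, had 232.6, 255.9 and 259.9 CPM as the lowest, median and highest cKO novelty library and 247.4, 257.3 and 271.6 CPM in cKO naive libraries. Its 5 control novelty libraries had 257.5, 261.7, 252.7, 249.5 and 258.9 CPM, against 242.8, 260.5 and 277.4 CPM in control naive libraries. All 4 ranges overlap, and averaged over genotypes the log2 fold change of Usp22 with novelty was -0.04 (SE 0.03, edgeR adjusted p = 0.51). Eny2 had 68.4, 73.7 and 77.9 CPM in cKO novelty libraries against 74.3, 76.9 and 81.3 CPM in cKO naive libraries. It had 74.7, 71.2, 75.7, 74.0 and 76.1 CPM in control novelty libraries against 74.1, 77.3 and 87.2 CPM in control naive libraries. The exposed and naive ranges of Eny2 overlap in both genotypes, with a log2 fold change averaged over genotypes of -0.09 (SE 0.03, edgeR adjusted p = 0.085). With upper-quartile scaling Eny2 passed, with a log2 fold change of -0.10 (edgeR adjusted p = 0.030). The values for Atxn7l3, which together with Eny2 activates Usp22, are given with the genotype comparison. Its log2 fold change with novelty averaged over genotypes was 0.00 (SE 0.03, edgeR adjusted p = 1.0).

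**Figure D2:**
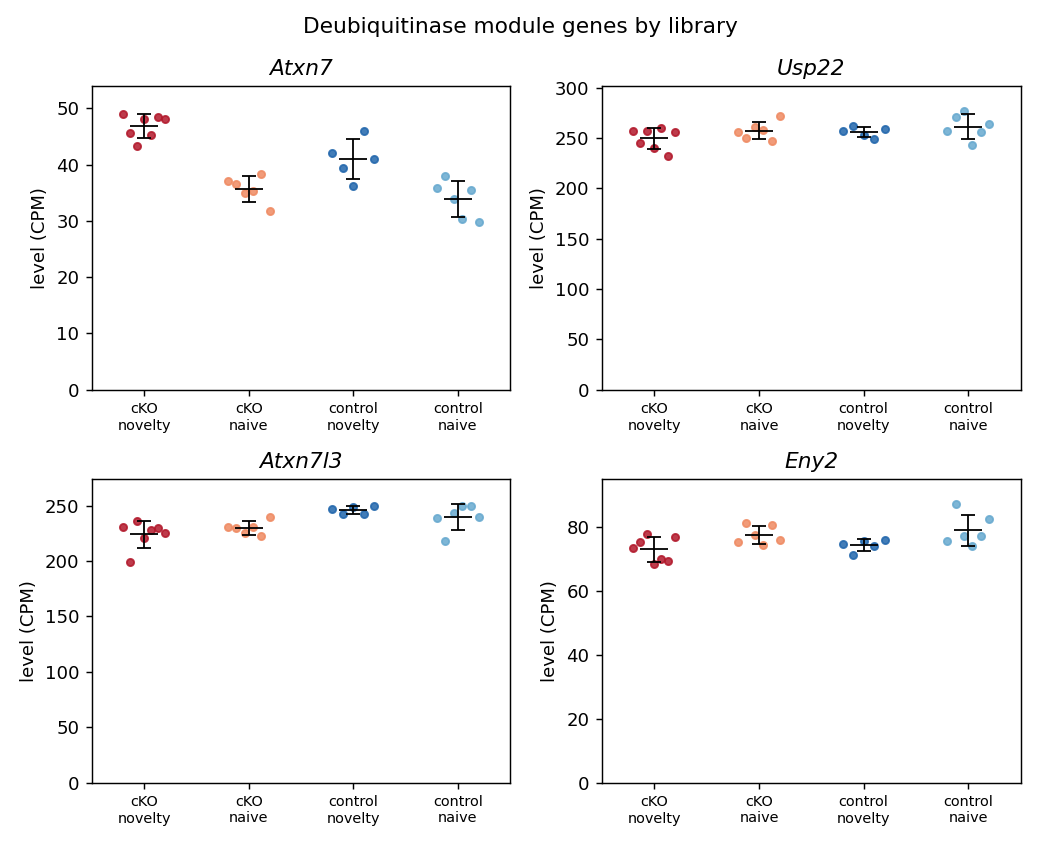
Level in CPM of the 4 deubiquitinase module genes in each library (points), with the mean and SD of each group (bars), for cKO novelty, cKO naive, control novelty and control naive libraries from left to right. The 7 cKO novelty libraries of Atxn7 lie between 43.4 and 49.0 CPM, above all cKO naive libraries, whereas the 4 groups of Usp22 and of Eny2 overlap.

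As a ratio within each library, there were 18.8 ± 1.37 Atxn7 reads per 100 Usp22 reads in cKO novelty libraries (SD, n = 7) and 13.9 ± 1.31 in cKO naive libraries (SD, n = 6). The same ratio was 16.01 ± 1.56 in control novelty libraries (SD, n = 5) and 13.0 ± 1.13 in control naive libraries (SD, n = 6). These ratios are descriptions, uncorrected for gene length and given with no test.

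Among the 26 other members, 1 passed with novelty when the genotypes were averaged, which with Atxn7 makes 2 of 30, where 6.55% of all genes passed. DESeq2 called 5, adding Tada1, Tada2b and Wdr5 (7.82% of all genes). This was Taf12 (ENSMUSG00000028899, chr4:132274375-132295766, plus strand), a histone-fold protein of the SAGA core that is also part of the general transcription factor TFIID. Taf12 had 17.3, 19.4 and 20.9 CPM as the lowest, median and highest cKO novelty library, against 15.4, 16.6 and 17.8 CPM in cKO naive libraries. Its 5 control novelty libraries had 17.86, 19.06, 16.00, 17.93 and 17.73 CPM, against 16.2, 16.9 and 17.3 CPM in control naive libraries. The ranges overlap in both genotypes, with 6 of 7 cKO and 4 of 5 control exposed libraries above their naive range. The rise averaged over genotypes was 10.3% (log2 fold change 0.14, SE 0.04, edgeR adjusted p = 0.017), and it did not pass without control novelty library 2 (edgeR adjusted p = 0.053). Within cKO mice the log2 fold change of Taf12 was 0.21 (SE 0.05, edgeR adjusted p = 0.054), and within control mice it was 0.07 (SE 0.06, edgeR adjusted p = 0.76).

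The window from 250 bases before to 50 bases after the annotated start is shown for Atxn7 and Taf12, since they are the members that passed with novelty. The sequences are from RefSeq (GRCm38.p6, plus strand), chr14:14012241-14012540 for Atxn7 and chr4:132274125-132274424 for Taf12, written 5′ to 3′. Capitals mark the letters GGGCGG of a GC box in Atxn7 and the letters CCGGAAG of an ETS motif in Taf12, each searched on both strands.
Atxn7: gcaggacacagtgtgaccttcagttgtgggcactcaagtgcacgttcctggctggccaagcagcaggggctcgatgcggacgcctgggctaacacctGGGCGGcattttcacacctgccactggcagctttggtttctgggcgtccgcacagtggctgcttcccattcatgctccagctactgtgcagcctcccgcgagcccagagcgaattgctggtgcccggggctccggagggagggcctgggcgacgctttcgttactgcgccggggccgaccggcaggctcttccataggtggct
Taf12: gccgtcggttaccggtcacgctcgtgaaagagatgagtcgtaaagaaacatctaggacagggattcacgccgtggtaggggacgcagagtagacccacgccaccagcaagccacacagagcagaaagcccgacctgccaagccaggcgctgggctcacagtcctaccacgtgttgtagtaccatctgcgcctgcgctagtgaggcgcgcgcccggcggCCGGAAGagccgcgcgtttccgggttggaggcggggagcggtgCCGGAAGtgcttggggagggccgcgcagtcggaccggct
A RefSeq window was found for 26 of the 30 members. GGGCGG was found for 20 of them, and 35.7% of the 32851 windows of all genes hold it. For each motif, members are counted by gene and all genes by window, and a member may have several windows. Counts and shares are therefore unlike measures, and no comparison between them was made. CCGGAAG was found for 7 of the 26, and 8.86% of all windows hold it. The cAMP response element TGACGTCA was found for 0 of the 26 (1.79% of all windows) and the EGR motif GCGTGGGCG for 0 (0.612% of all windows). TGACG, the shorter core of the cAMP response element, was found for 8 members (20.8% of all windows) but in neither of the windows shown.

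Genotype differences ran in both directions and were spread over several modules. In naive mice 0 of the 30 members passed by edgeR, where 0.801% of all genes did. There, 5 members had an unadjusted p below 0.05, as did 2223 of all 16360 genes tested. DESeq2 (2.84% of all genes) and limma-voom (0.850% of all genes) each called 0. The member with the smallest p was the splicing factor gene Sf3b3 (log2 fold change -0.17, SE 0.05, edgeR adjusted p = 0.13). In novelty-exposed mice 5 of 30 members passed, where 4.53% of all genes did. Of these, 4 were higher in cKO mice (2.13% of all genes were) and 1 was lower (2.40% of all genes were). Averaged over both exposures 6 of 30 passed, where 12.05% of all genes did. Of the 6, 3 were higher in cKO mice (5.72% of all genes were) and 3 were lower (6.32% of all genes were). Upper-quartile scaling called 10, adding Atxn7l1, Trrap, Yeats2 and Zzz3 (12.1% of all genes).

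**Figure D3:**
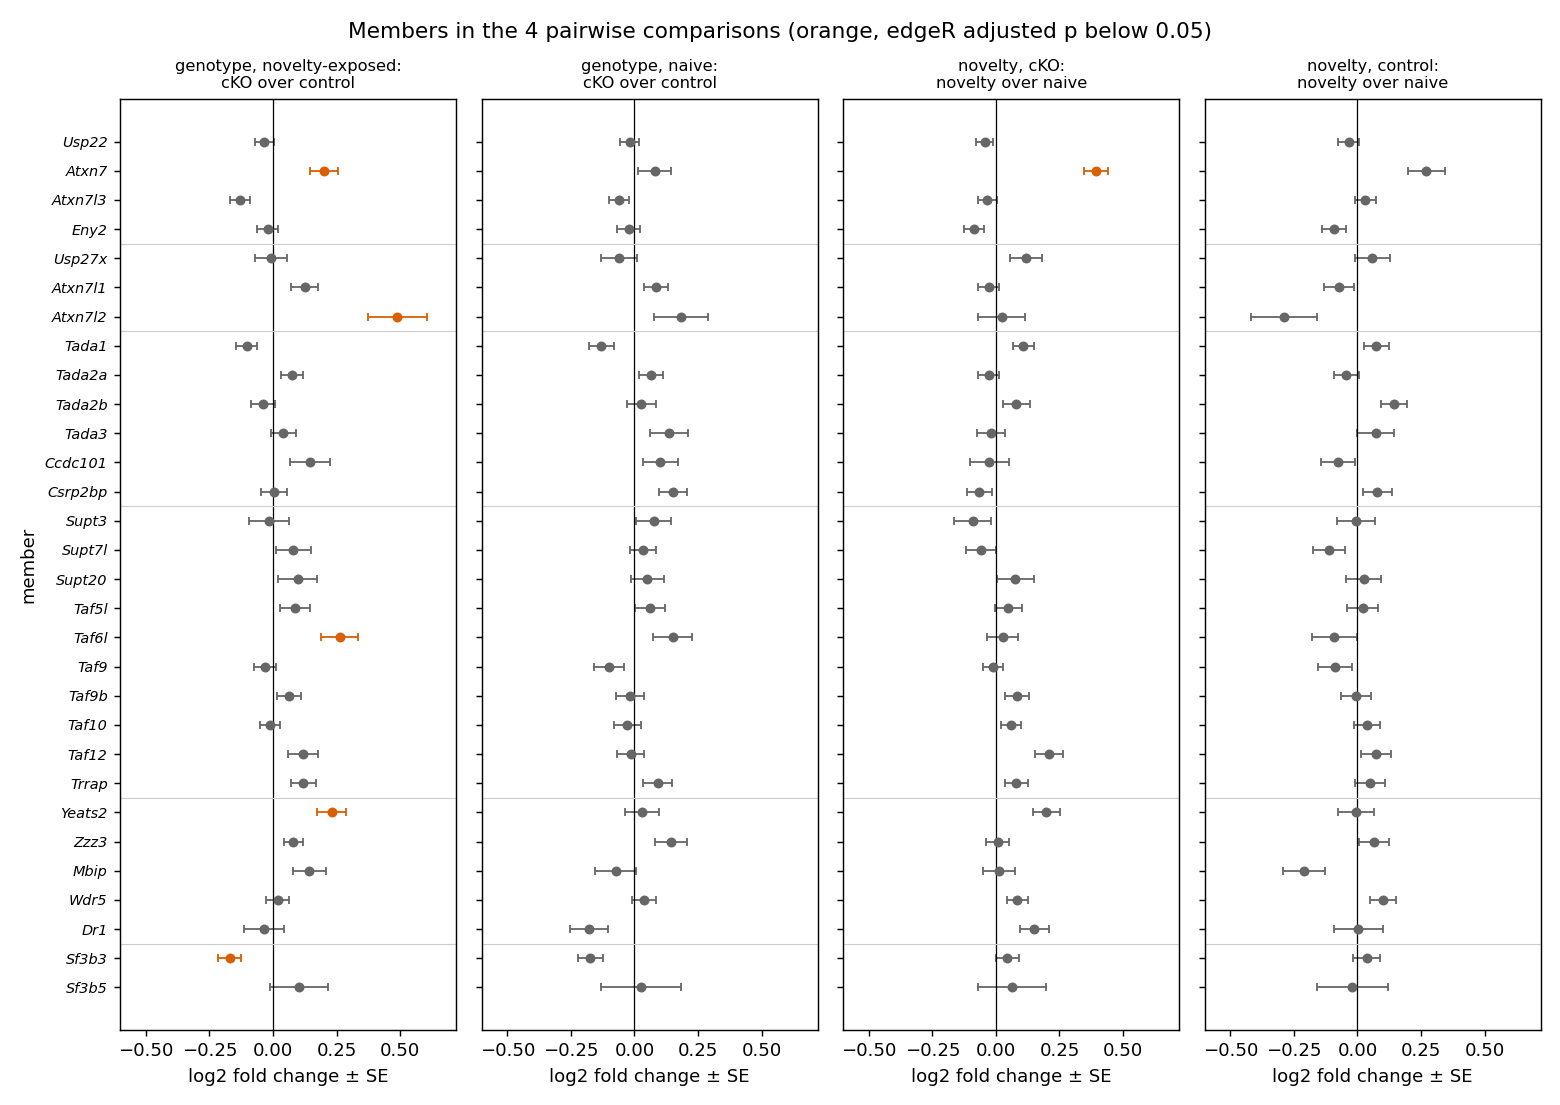
Log2 fold change with its SE for each member in the 4 pairwise comparisons, cKO over control in the first 2 panels and novelty over naive in the others, with members grouped by module and orange points for an edgeR adjusted p below 0.05. Atxn7 passes with novelty in cKO mice, 5 members pass between genotypes after novelty, and none passes in the other 2 panels.

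Within the deubiquitinase module, Atxn7 was higher and Atxn7l3 lower in cKO mice when the exposures were averaged, and neither passed in naive mice. Atxn7l3 (ENSMUSG00000059995, chr11:102289300-102296631, minus strand) had 199.1, 227.6 and 236.3 CPM as the lowest, median and highest cKO novelty library, against 246.5, 242.5, 248.5, 242.6 and 249.9 CPM in the 5 control novelty libraries. All exposed cKO libraries lay below all exposed control libraries. It had 222.6, 230.3 and 240.1 CPM in cKO naive libraries, against 218.4, 241.6 and 249.3 CPM in control naive libraries, and these ranges overlap. Averaged over exposures, Atxn7l3 fell by 6.5% in cKO mice (log2 fold change -0.10, SE 0.03, edgeR adjusted p = 0.017). After novelty alone the log2 difference was -0.13 (SE 0.04, edgeR adjusted p = 0.071), and in the authors' deposited table it was -0.14 (SE 0.04, adjusted p = 0.011).

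Atxn7 was higher in cKO mice after novelty by 14.9% (log2 fold change 0.20, SE 0.05, edgeR adjusted p = 0.046). Of the 7 exposed cKO libraries, 4 lay above all 5 exposed control libraries. In naive mice the log2 fold change of Atxn7 was 0.08 (SE 0.06, edgeR adjusted p = 0.64). Averaged over exposures it was 0.14 (SE 0.04, edgeR adjusted p = 0.035), a call that was kept in 13 of the 24 fits that each left out 1 library. It was lost without cKO novelty library 4, 6 or 7, cKO naive library 1, 2 or 5, control novelty library 2, 3 or 5, or control naive library 4 or 6, where the adjusted p reached 0.081. Usp22 (log2 fold change averaged over exposures -0.03, SE 0.03, edgeR adjusted p = 0.51) and Eny2 (-0.02, SE 0.03, edgeR adjusted p = 0.65) did not pass between genotypes.

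Of the paralogues of the module, Atxn7l2 differed, and Atxn7l1 and Usp27x did not pass by edgeR with its TMM scaling. Averaged over exposures, Atxn7l1 passed with upper-quartile scaling (12.1% of all genes). Usp27x is a protease that works with the same activators as Usp22. Atxn7l2 (ENSMUSG00000048997, chr3:108202222-108210934, minus strand) had 15.8, 20.1 and 22.4 CPM in cKO novelty libraries, against 13.7, 13.1, 14.6, 19.6 and 10.9 CPM in control novelty libraries. It had 16.4, 19.9 and 23.1 CPM in cKO naive libraries, against 15.3, 16.4 and 22.2 CPM in control naive libraries. The control novelty library with 19.6 CPM lay inside the cKO range, and the naive ranges overlap. Atxn7l2 was 25.9% higher in cKO mice averaged over exposures (log2 fold change 0.33, SE 0.08, edgeR adjusted p = 0.0098) and 40.3% higher after novelty (log2 fold change 0.49, SE 0.12, edgeR adjusted p = 0.029).

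In the SAGA core, 1 of 11 members was higher and 1 lower in cKO mice averaged over exposures, where 5.72% and 6.32% of all genes were. Taf6l (ENSMUSG00000003680, chr19:8774354-8786417, minus strand), a TAF-like protein of the core, had 10.2, 10.9 and 12.1 CPM in cKO novelty libraries, against 9.30, 9.16, 8.16, 10.16 and 9.52 CPM in control novelty libraries. All exposed cKO libraries lay above all exposed control libraries. It had 10.03, 10.83 and 11.72 CPM in cKO naive libraries, against 8.13, 9.82 and 10.8 CPM in control naive libraries, which overlap. Taf6l was 15.2% higher averaged over exposures (log2 fold change 0.20, SE 0.05, edgeR adjusted p = 0.0082) and 19.9% higher after novelty (log2 fold change 0.26, SE 0.07, edgeR adjusted p = 0.048). It was the member of lowest level per kb, with 85 to 321 reads per library. Taf6l and Atxn7l3 were the 2 members whose exposed libraries did not overlap between genotypes, where 3.09% of all genes did not.

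Tada1, the histone-fold partner of Taf12 in the core (ENSMUSG00000026563, chr1:166379097-166393621, plus strand), had 38.6, 40.1 and 41.8 CPM in cKO novelty libraries, against 45.1, 44.9, 42.9, 43.3 and 40.5 CPM in control novelty libraries. It had 33.7, 38.2 and 39.2 CPM in cKO naive libraries, against 38.7, 41.0 and 44.0 CPM in control naive libraries. The cKO values lie towards the low end with overlap in both exposures, and Tada1 fell by 7.9% averaged over exposures (log2 fold change -0.12, SE 0.03, edgeR adjusted p = 0.0097). Of its exon bases, 34.9% overlap Pogk or Gm15853 on the opposite strand. The library kit does not mark strand, so reads there could come from either gene, and Pogk had a log2 fold change of -0.11 (edgeR adjusted p = 0.091) in the same comparison.

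The splicing module holds Sf3b3 and Sf3b5, which SAGA shares with the SF3b complex of the spliceosome. Sf3b3 (ENSMUSG00000033732, chr8:110810492-110846803, minus strand) had 87.5, 93.7 and 101.4 CPM in cKO novelty libraries, against 110.8, 107.5, 99.0, 105.8 and 98.6 CPM in control novelty libraries. It had 83.8, 88.8 and 98.2 CPM in cKO naive libraries, against 96.1, 97.8 and 111.7 CPM in control naive libraries. In each exposure all but 1 of the cKO libraries lay below every control library. Sf3b3 fell by 11.4% averaged over exposures (log2 fold change -0.17, SE 0.03, edgeR adjusted p = 0.0013), the smallest p among the members, and by 11.1% after novelty (log2 fold change -0.17, SE 0.05, edgeR adjusted p = 0.042). Sf3b5 did not pass (log2 fold change averaged over exposures 0.06, edgeR adjusted p = 0.76).

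In the ATAC module, 0 of 6 members passed averaged over exposures by edgeR with its TMM scaling, where 12.05% of all genes did. With upper-quartile scaling edgeR called Yeats2 and Zzz3 (2033 of 16744 genes). DESeq2 called Yeats2 and Zzz3 (2392 of 16744 genes) and limma-voom called Zzz3 (2118 of 16744 genes). Yeats2 and Zzz3 both had an unadjusted edgeR p below 0.05, as did 4453 of 16744 genes. Yeats2, which reads acylated histone H3, passed after novelty. Yeats2 (ENSMUSG00000041215, chr16:20141063-20232573, plus strand) had 39.9, 46.5 and 47.9 CPM in cKO novelty libraries, against 38.8, 38.8, 36.8, 44.9 and 36.2 CPM in control novelty libraries. Of the exposed cKO libraries, 6 of 7 lay above all exposed control libraries. It had 35.0, 39.9 and 43.3 CPM in cKO naive libraries, against 33.1, 39.5 and 43.3 CPM in control naive libraries, which are nearly the same range. Yeats2 was 17.3% higher in cKO mice after novelty (log2 fold change 0.23, SE 0.06, edgeR adjusted p = 0.033), with a log2 fold change of 0.03 in naive mice (SE 0.07, edgeR adjusted p = 0.90). The difference between these was tested as an interaction and did not pass (log2 0.20, SE 0.09, edgeR adjusted p = 1.0). For the whole list, 0 of 30 members and 0% of all genes passed the interaction by edgeR, DESeq2 and limma-voom. The unadjusted edgeR p was below 0.05 for Yeats2 and Mbip, and for 688 of all 16744 genes tested.

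**Figure D4:**
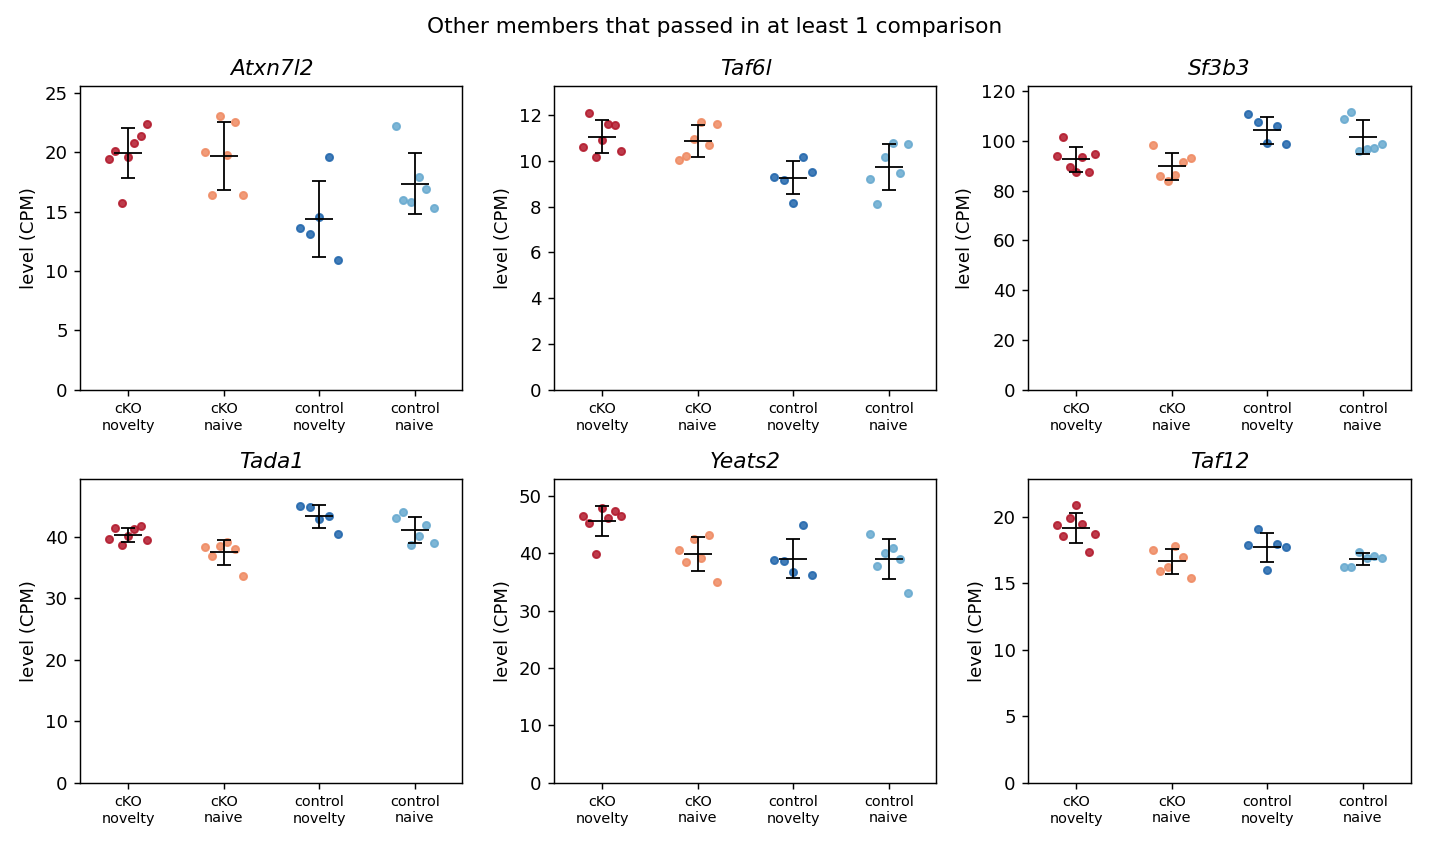
Level in CPM of the 6 members outside the deubiquitinase module that passed in at least 1 comparison, in each library (points), with the mean and SD of each group (bars), for cKO novelty, cKO naive, control novelty and control naive libraries from left to right. Taf6l sits between 10.2 and 12.1 CPM in cKO novelty libraries, above the exposed controls, and Sf3b3 is lower in most cKO libraries than in controls of both exposures.

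The calls made between genotypes after novelty lay near the threshold (edgeR adjusted p = 0.029 to 0.048) and were lost without any of several libraries. With each library left out, the log2 fold change was 0.16 to 0.24 for Atxn7, 0.41 to 0.61 for Atxn7l2 and 0.205 to 0.281 for Yeats2. It was 0.22 to 0.29 for Taf6l and -0.19 to -0.15 for Sf3b3. Left out in turn, control novelty library 1, 2 or 5, or cKO novelty library 5, 6 or 7, each took the count of members called to 0. Over all genes, 733 passed with all libraries and 536 without control novelty library 1. Without cKO novelty library 5, 6 or 7, it was 430, 517 and 484 genes. Without control novelty library 3 Sf3b3 alone passed, without cKO novelty library 1 or 4 Atxn7l2 alone passed, and without cKO novelty library 2 Atxn7l2, Sf3b3 and Yeats2 passed. Without control novelty library 4, Sf3b3 alone was lost. The highest count was 6, without cKO novelty library 3, with Atxn7l3 added, where 1025 of all genes passed. The averaged genotype calls of Taf6l, Atxn7l2, Tada1, Atxn7l3 and Sf3b3 were each kept in all 24 such fits, which draw on all libraries rather than the exposed ones alone. These averaged calls did not pass within either set of library numbers, where fewer libraries were tested. The Atxn7 call with novelty was kept in all 13 such fits in cKO mice and in all 24 fits averaged over genotypes.

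The authors' deposited table called Atxn7 alone among the members with novelty in control mice (2.79% of all genes) and 0 members between genotypes in naive mice (3.18% of all genes). After novelty it called Atxn7, Atxn7l2, Taf6l and Yeats2 higher and Atxn7l3 and Sf3b3 lower in cKO mice (8.17% of all genes). With novelty in cKO mice it called Atxn7, Taf12 and Yeats2 higher (4.41% of all genes).

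Set side by side, the median log2 fold change of the deubiquitinase module lay below that of the other 26 members in all 7 comparisons, whereas Atxn7 lay above the median of the others in all 7. With novelty in control mice the medians were nearly equal, and the order turned in libraries numbered 1 to 3 (0.01, module minus others) and without control naive library 3 (0.01). Between genotypes after novelty the medians were -0.03 for the module and 0.08 for the others, with 0.01 over all genes tested. Between genotypes in naive mice they were -0.02 and 0.03, with 0.00 over all genes. With novelty in cKO mice they were -0.04 and 0.05, with -0.01 over all genes. With novelty in control mice they were 0.00 and 0.01, with -0.01 over all genes. Atxn7 was the highest of the 4 module genes in each comparison, so the median of the module lies between values of the other 3. No test of the module against the rest was made, and the medians are descriptions.

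Markers of other cells differed with genotype as well. Averaged over exposures, 4 of 5 oligodendrocyte markers (Mog, Mobp, Opalin and Cnp) were lower in cKO mice, as were 3 of 7 interneuron markers (Gad1, Gad2 and Pvalb), 1 of 7 CA1 pyramidal markers (Camk2a), 1 of 6 dentate granule markers (C1ql2) and 1 of 6 endothelial and pericyte markers (Rgs5), where 6.32% of all genes were lower. No marker of any list was higher, where 5.72% of all genes were. The summed oligodendrocyte markers were at 2034 to 4002 CPM in exposed and 2657 to 3336 CPM in naive cKO libraries, and at 2979 to 3508 CPM in exposed and 2924 to 3322 CPM in naive control libraries. The part of these differences in the genotype results of the members was not tested. With novelty averaged over genotypes, where 6.55% of all genes passed, 1 of 5 oligodendrocyte markers (Opalin) and 2 of 6 endothelial and pericyte markers (Cldn5 and Pdgfrb) were lower. Of 6 astrocyte markers, Gjb6 was higher and Sox9 lower, and of 6 microglial markers, Tmem119 was higher and P2ry12 lower. The part of these differences in the novelty results of the members was not tested.

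The deposited tables give the names Supt20 and Taf9 to a further entry each, which are not counted among the 30. The further Supt20 entry (ENSMUSG00000095832) lies over the main entry on the same strand, so reads of 1 locus could be split between the entries. It had a log2 fold change of 0.27 between genotypes after novelty (SE 0.07, edgeR adjusted p = 0.037), where the main entry had 0.10 (edgeR adjusted p = 0.50). Both entries together had 43.9 ± 3.90 CPM in cKO novelty libraries (SD, n = 7), 41.6 ± 2.54 in cKO naive (SD, n = 6), 38.9 ± 2.64 in control novelty (SD, n = 5) and 41.5 ± 3.12 in control naive (SD, n = 6). The further Taf9 entry corresponds to Ak6 in GENCODE and did not pass in any comparison. Reads are also uncertain for Taf10, since 45.9% of its exon bases overlap Ilk on the opposite strand.

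Genes of partner complexes were counted on lists chosen for their known roles. Kat2b, which can take the place of Kat2a in both complexes, had a log2 fold change of -0.12 between genotypes averaged over exposures (SE 0.04, edgeR adjusted p = 0.071). Of 7 further SAGA- or ATAC-linked genes, Chrac1 was higher (0.15, SE 0.05, edgeR adjusted p = 0.037) and Atxn7l3b lower (-0.08, SE 0.02, edgeR adjusted p = 0.016) in cKO mice on the log2 scale. Of 12 TFIID genes, which share Taf9, Taf10 and Taf12 with SAGA, Taf8 alone passed between genotypes, and 3 rose with novelty averaged over genotypes: Taf4a (log2 fold change 0.25, SE 0.05), Taf5 (0.21, SE 0.06) and Taf8 (0.14, SE 0.04). Of 11 genes of the COMPASS histone methyltransferases, which share Wdr5 with ATAC, Kmt2a (log2 fold change 0.21, SE 0.03, edgeR adjusted p = 6.03e-05) and Setd1b (0.21, SE 0.06, edgeR adjusted p = 0.022) rose with novelty, and Kmt2b and Cxxc1 were higher in cKO mice. Of the 17 TIP60 genes, Epc2 and Vps72 were higher and Morf4l2 was lower in cKO mice, and Meaf6 was lower with novelty. Of 11 tested genes that add or remove ubiquitin on histone H2B, the protease gene Usp49 was higher and the conjugating enzyme gene Ube2b was lower in cKO mice. The genes of SF3b (lowest edgeR adjusted p 0.19, for Sf3b2 with genotype), of TREX-2 (lowest 0.29, for Mcm3ap with novelty) and Drap1, the partner of Dr1 in the repressor NC2 (lowest 0.50, with genotype), did not pass in either averaged comparison. Of all genes, 12.05% passed with genotype and 6.55% with novelty. The counts describe the lists, and whether any list differs from all genes was not tested.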

How the data were processed

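Polyadenylated RNA was sequenced in 24 libraries, and the authors deposited whole-number read counts per gene for each. The submitters' processing notes name the build GRCm38.p2 and the tools HTSeq, DESeq2 and STAR 2.3.0 with no roles, and the strand setting of the counting is not given in the sources used here. A further 4 tables by the authors, 1 per pairwise comparison, per the file headers hold a mean normalised count (a signal), a log2 fold change with its SE, a p-value and an adjusted p-value.

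The 5 summary entries of each count table were left out. Reads without a gene were 7.58 to 10.36% per library. Counts were scaled by TMM, filtered with filterByExpr (minimum count 10) and tested with edgeR 4.0.16 (quasi-likelihood, Benjamini-Hochberg adjustment over all genes, threshold 0.05), in R 4.3.3. Each pairwise comparison was fitted on its 2 groups, and averages and the interaction on all 24 libraries. The SE given with an edgeR log2 fold change was derived from its F test. It is the absolute log2 fold change over the square root of F. Alternatives were DESeq2 1.42.0, limma-voom 3.58.1, other scalings, no filter, library numbers and each library left out. CPM per kb used the merged length of the annotated exons of a gene from GENCODE mouse release 21. For genes listed in the authors' tables, exon bases outside the gene span given there were left out. The methods were checked on simulated data with the same spread for every gene and with changes larger than those of the members. This check therefore does not cover changes of the size reported for the members. The 4 deubiquitinase genes and every member that passed are described in full. The members and lists were chosen with earlier results of these data known. The further entries of Supt20 and Taf9, and Pogk beside Tada1, were added after seeing the data. One marker gene is not reported here.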

Additional observations from a re-analysis of the deposited data

Results flagged for a closer look

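Of 124 groups of library values, 8 held a library far from the others of its group, by the gap to its nearest neighbour over the range of the group. Chance alone gives about 1 in 20 such groups. Control naive library 2, the library of lowest depth, accounted for 3 of the 8. There Supt7l was high at 24.19 CPM, against 20.08 to 21.38 CPM in the other 5 control naive libraries. Trrap was low at 171.0 CPM, against 195.5 to 210.0 CPM, and Atxn7l3 was low at 218.4 CPM, against 238.8 to 249.3 CPM. Atxn7l3 was also low in cKO novelty library 2, at 199.1 CPM against 220.7 to 236.3 CPM in the others. Yeats2 was low in cKO novelty library 3, at 39.88 CPM against 45.26 to 47.92 CPM. Zzz3 was high in cKO naive library 1, at 102.7 CPM against 82.89 to 85.75 CPM. In control novelty libraries, Ccdc101 was high in library 5, at 10.64 CPM against 9.548 to 9.797 CPM, and Taf9 was low in library 4, at 56.03 CPM against 61.0 to 62.84 CPM.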

How the results depend on the processing

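Counts of members called moved by over 1.5 times as follows, and the cause was not tested. Between genotypes after novelty (5 members), 0 passed with the replicate block (398 of 16188 genes). With a term for library numbers up to 3 against higher, 2 passed (669 of 16188 genes). Within libraries numbered 1 to 3, 0 passed (17 of 16075 genes), and within those numbered 4 and above 0 passed (121 of 16481 genes). The main fit called 733 of 16188 genes, so calls over all genes fell in these settings too. Same-numbered libraries did not deviate together in every pair, so the numbers were not treated as pairs. With novelty in cKO mice (1, where 2.41% of all genes passed), DESeq2 gave 3 (4.00% of all genes), libraries numbered 1 to 3 gave 0 and a fit of all 24 libraries gave 2. With novelty in control mice (0, where 1.22% of all genes passed), no filter, DESeq2 (2.34% of all genes), libraries numbered 4 and above and the fit of all 24 libraries each gave 1, which was Atxn7. Averaged over exposures, genotype (6) gave 10 with upper-quartile scaling (2033 of 16744 genes, 2017 in the main fit). It gave 0 within either set of library numbers, where fewer libraries were tested (402 of 16684 and 405 of 16964 genes). Averaged over genotypes, novelty (2, where 6.55% of all genes passed) gave 5 with DESeq2 (7.82% of all genes) and 1 within either set, and Atxn7 passed in both sets. For novelty, calls over all genes are not given here for the settings without a share. Those counts do not show whether the members moved apart from all genes. The median of the deubiquitinase module minus that of the others was -0.046 between genotypes after novelty in libraries numbered 1 to 3 (-0.105 in all), and 0.039 and -0.103 for the interaction in libraries numbered 1 to 3 and 4 and above (-0.048 in all).

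Leaving out each library in turn gave 0 to 6 members between genotypes after novelty, 1 to 2 with novelty in cKO mice, 0 to 1 with novelty in control mice, 5 to 8 for genotype averaged over exposures and 1 to 4 for novelty averaged over genotypes. For genotype averaged over exposures, 1480 to 2210 of all genes passed in these fits. Calls over all genes are not set beside the other ranges here, so those ranges do not show whether the members moved apart from all genes. Of 1001 alternative values of named members, 898 stayed on the same side of the threshold. Of the 397 alternatives to values that passed, 94 lost the call. Of the 604 alternatives to values that did not pass, 9 gained it. The sign changed in 0 of 397 alternatives to values that passed and in 8 of 604 alternatives to values that did not. Among the members called, depth was lowest for Taf6l, with as few as 85 reads in a library.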
